A study of Mus musculus with 6 samples.

Results

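Sox1, Sox2, Sox3, Nes, Vim, Fabp7, Msi1, Prom1, Slc1a3 and Hmga2 are genes of the neuroepithelial progenitors and radial glia that line the embryonic spinal cord. They were taken by name, as the probe sets annotated to 1 of these 10 symbols alone. All 10 genes were found among 19920 genes with a probe set measured on every array, and each had a single probe set among 28815 in the table. RNA came from mouse cervical spinal cord at embryonic day 11.5, dissected free of dorsal cord and floor plate, and was measured on whole-transcript arrays. The groups were 3 arrays labelled Nkx2.9 knockout, named A, B and C, and 3 wild-type arrays, also named A, B and C. No strain, treatment or further allele was named in the labels, which also did not say whether an array held 1 embryo or a pool. The p-values therefore measure only the spread between these samples, which may be technical, and the number of arrays limits the precision. The study looked for genes that act downstream of Nkx2.9, a homeodomain transcription factor of the ventral cord, in spinal accessory motor neurons.

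Neuroepithelial cells divide at the ventricle and give rise to neurons, then to glia. The SoxB1 transcription factors Sox1, Sox2 and Sox3 hold them in the progenitor state and oppose neuronal differentiation. As neurogenesis proceeds the cells take on radial glial features, with the intermediate filaments nestin and vimentin in a process that spans the wall of the cord.

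The deposited values were log2 expression values from which the median of each probe set over the 6 arrays had been subtracted. A value of 0 thus stands for the middle of the 6 arrays, and no level of expression could be read. For the same reason the presence of these genes, or of other markers of the labelled tissue, could not be checked, and in bulk tissue fewer cells of a type and less RNA per cell cannot be told apart. Nkx2-9 itself stood at -0.07, 0.26 and 0.11 in knockout A, B and C, against -0.21, 0.07 and -0.11 on the wild-type arrays A, B and C. Its difference, labelled knockout minus wild type, was 0.18 (SE 0.11) and the groups overlapped, so the probe set did not separate the labels; the sources used here do not say where its probes lie relative to the deleted part. The arrays are called labelled knockout for this reason.

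None of the 10 genes passed an adjusted p of 0.05 in limma over all probe sets, where 0% of the table passed. The labelled knockout was higher for 5 of them and lower for 5. The median difference was 0.0085 on the log2 scale, against 0.0093 over all genes. At an unadjusted p under 0.05 there was 1 gene, Prom1, which was higher in the labelled knockout. At that threshold lay 5.57% of all probe sets, 3.07% higher and 2.5% lower. The 95% intervals of 9 of the 10 differences lay within 1.5-fold in either direction, as did 93.9% of those in the whole table, and that of Prom1 reached past 1.5-fold upwards. Adjusted p in limma lay between 0.812 and 0.988 for the 10 genes.

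**Figure D1:**
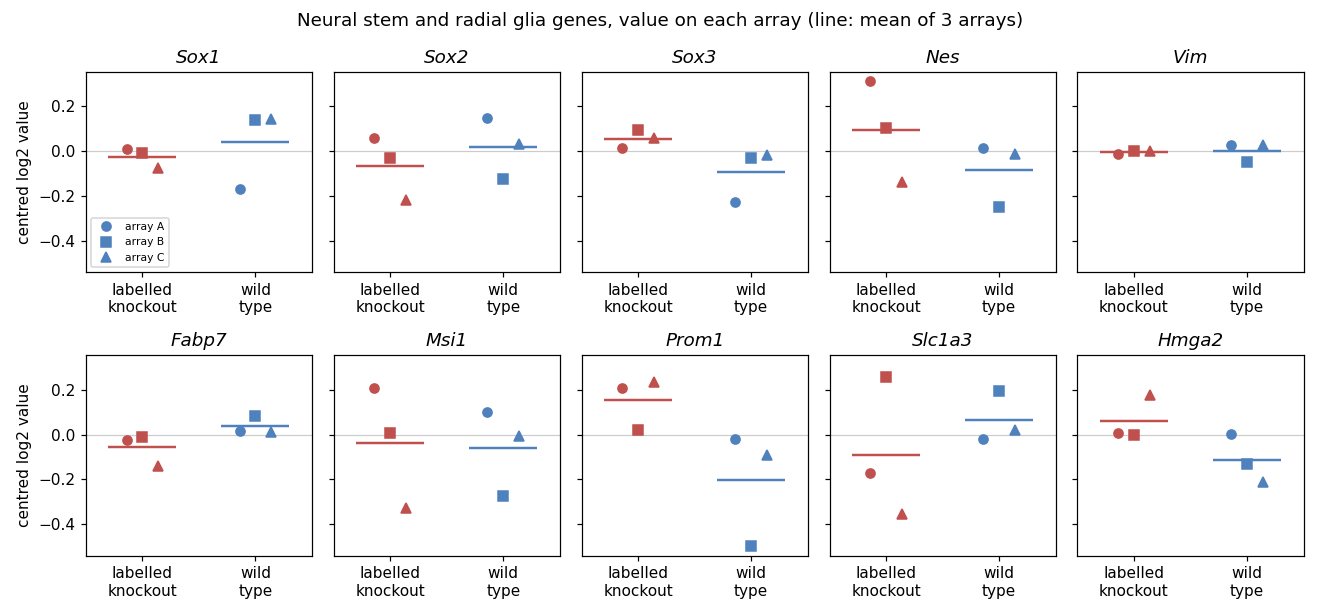
Value of each of the 10 genes on each array, as centred log2 values, with the arrays labelled knockout on the left and wild type on the right of each panel. Horizontal lines are means of 3 arrays, and circles, squares and triangles are arrays A, B and C. Prom1 and Sox3 lie higher and Fabp7 lower on all arrays labelled knockout, while Vim varies little and Msi1 and Slc1a3 vary widely within the groups.

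The SoxB1 transcription factors come first. Sox1, the member most restricted to neural tissue, stood at 0.01, -0.01 and -0.08 in knockout A, B and C, against -0.17, 0.14 and 0.14 on the wild-type arrays A, B and C. The arrays labelled knockout lay inside the spread of the wild type, and the difference was -0.06 (SE 0.09, 95% interval -0.29 to 0.16). It was -0.17 without wild-type A and -0.01 without wild-type B or wild-type C. Sox2, which is also a pluripotency factor, stood at 0.06, -0.03 and -0.22 in knockout A, B and C, against 0.15, -0.12 and 0.03 on the wild-type arrays A, B and C. Its groups overlapped too, with knockout C lowest and wild-type A highest, and its difference was -0.08 (SE 0.10, interval -0.32 to 0.15). With single arrays left out it ran between -0.15 (without wild-type B) and -0.0053 (without knockout C).

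Sox3, the X-linked member, stood at 0.02, 0.10 and 0.06 in knockout A, B and C, against -0.23, -0.03 and -0.02 on the wild-type arrays A, B and C. All arrays labelled knockout lay above all wild-type arrays, by a gap of only 0.033 between the nearest arrays. The difference was 0.15 (SE 0.07, interval -0.02 to 0.31), and it did not pass (adjusted p = 0.812 in limma). Without wild-type A, the lowest array, it was 0.08. The 3 genes did not share an order of arrays, since wild-type A was the lowest array for Sox1 and Sox3 and the highest for Sox2. Xist, the X-inactivation RNA, stood at 4.56 and 4.91 on knockout B and C and between -0.25 and 0.11 on the other 4 arrays, and the Y-linked gene Eif2s3y at -3.04 and -3.19 on knockout B and C. With the Xist value as a covariate Sox3 was at 0.10 (SE 0.11). Xist was high on knockout B and C alone, so any difference from that fit rested mainly on knockout A against the wild type. Such a fit cannot separate sex-linked expression from the label.

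Sox proteins bind DNA through an HMG box that recognises short motifs such as ACAAAG, and SoxB1 genes are themselves among the genes they regulate. The promoters of the genes were therefore searched for ACAAAG on both strands, in the 250 bases before the start of transcription, with RefSeq sequences of GRCm38.p6. Of the 10 genes 8 had a match in that table, and Sox3 and Msi1 did not. These 8 genes had 9 windows, as Prom1 had more than 1. ACAAAG was found for 2 of the 8 genes, Sox2 and Hmga2, and in 16.5% of all 32851 windows of the same length. The windows of 50 bases around these matches are shown because they are where this Sox motif, not specific to SoxB1, lies next to a gene described here. Capitals mark the motif, read from the strand of the gene, and the motif of Hmga2 lies on the other strand. The first is chr3:34649767-34649816 on the plus strand, and the second chr10:120476661-120476710 on the minus strand.
Sox2: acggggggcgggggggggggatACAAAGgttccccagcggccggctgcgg
Hmga2: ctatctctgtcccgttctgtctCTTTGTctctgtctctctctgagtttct
The motif starts 206 bases before the start of Sox2 and 219 bases before that of Hmga2. A match of letters is a description and not a binding site. Sox2 and Hmga2 had differences of opposite sign, and neither passed.

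The intermediate filament genes behaved unlike each other. Nes encodes nestin, the filament that gave neural stem cells one of their first markers. It stood at 0.31, 0.10 and -0.14 in knockout A, B and C, against 0.01, -0.25 and -0.01 on the wild-type arrays A, B and C. The groups overlapped, and the difference was 0.18 (SE 0.13, interval -0.13 to 0.49). It was 0.07 without knockout A, 0.29 without knockout C, 0.09 without wild-type B and 0.43 (SE 0.15) with the Xist covariate, so its size rested on single arrays.

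Vim encodes vimentin, a filament of radial glia and also of mesenchyme and vessels. It lay between -0.01 and 4.01e-05 on the arrays labelled knockout and between -0.05 and 0.03 on the wild-type arrays. Its range over the 6 arrays was 0.08, and its difference was -0.0057 (SE 0.04, interval -0.11 to 0.10), the narrowest interval of the 10. The median of the mesenchyme markers was 0.54 on knockout C and between -0.07 and 0.12 on the other arrays, and that of the endothelial and pericyte markers was 0.47 there and between -0.11 and 0.10 elsewhere. Vim was at -4.01e-05 on knockout C.

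Fabp7 encodes the brain lipid-binding protein, a fatty acid carrier of radial glia downstream of Notch signalling. It stood at -0.02, -0.01 and -0.14 in knockout A, B and C, against 0.01, 0.08 and 0.01 on the wild-type arrays A, B and C. All arrays labelled knockout lay below all wild-type arrays, with a gap of 0.024. The difference was -0.09 (SE 0.05, interval -0.22 to 0.03) and did not pass, and without knockout C it was -0.05.

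Slc1a3 encodes the glutamate transporter GLAST, a mark of radial glia and later of astrocytes. It stood at -0.17, 0.25 and -0.35 in knockout A, B and C, against -0.02, 0.19 and 0.02 on the wild-type arrays A, B and C. The arrays labelled knockout enclosed the wild type, and knockout B lay far above A and C. The difference was -0.15 (SE 0.16, interval -0.53 to 0.22), which became -0.33 without knockout B and -0.02 without knockout C.

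Msi1 encodes Musashi-1, an RNA-binding protein that represses translation of Numb and so favours Notch signalling in progenitors. It stood at 0.21, 0.01 and -0.33 in knockout A, B and C, against 0.10, -0.28 and -0.01 on the wild-type arrays A, B and C. The arrays labelled knockout enclosed the wild type, and the difference was 0.02 (SE 0.16, interval -0.35 to 0.40). Its sign changed when knockout A (-0.10), knockout B (-0.00030) or wild-type B (-0.08) was left out, and with the Xist covariate it was 0.30 (SE 0.19).

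Prom1 encodes prominin-1 (CD133), a membrane glycoprotein of the apical surface and cilium of neuroepithelial cells. It stood at 0.21, 0.02 and 0.23 in knockout A, B and C, against -0.02, -0.50 and -0.09 on the wild-type arrays A, B and C. All arrays labelled knockout lay above all wild-type arrays, with a gap of 0.042, and wild-type B stood apart at the low end. The mean was 0.15 ± 0.12 in the arrays labelled knockout and -0.20 ± 0.26 in the wild type (SD over 3 arrays each). The difference was 0.36 (SE 0.13, interval 0.03 to 0.68, 1.28-fold), with an unadjusted p of 0.0350 and an adjusted p of 0.812 in limma. Without wild-type B it was 0.21 (SE 0.08, unadjusted p = 0.0457 in limma). It was 0.32 without knockout C, where the unadjusted p was 0.0929.

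Hmga2 encodes a chromatin protein with AT-hooks that is high in young neural stem cells and declines as the let-7 microRNAs accumulate. It stood at 0.0052, -0.0015 and 0.18 in knockout A, B and C, against 0.0016, -0.13 and -0.21 on the wild-type arrays A, B and C. Only knockout B and wild-type A were in the opposite order, by 0.0031, and knockout C stood above the rest. The difference was 0.17 (SE 0.08, interval -0.01 to 0.36), and it was 0.12 without knockout C. It did not pass (adjusted p = 0.812 in limma).

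Of the 10 genes 3 had groups that did not overlap, 2 of them higher (Prom1 and Sox3) and 1 of them lower (Fabp7) in the labelled knockout. In the whole table the groups did not overlap in 10.9% of complete probe sets, 6.68% higher and 4.25% lower. With 10 genes this difference in shares was not tested.

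**Figure D2:**
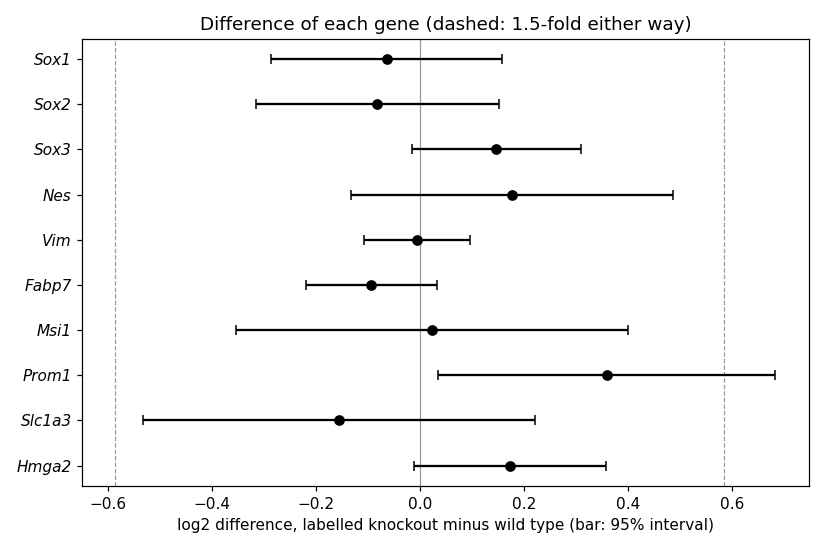
Difference of each gene, labelled knockout minus wild type, on the log2 scale, with its 95% interval from limma and dashed lines at 1.5-fold either way. Only the interval of Prom1, from 0.03 to 0.68, lies wholly on one side of 0, and it alone crosses a dashed line.

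The genes differed in how steady they were within a group. The pooled SD within groups was 0.23 for Msi1 and for Slc1a3, larger than that of 94.5% of the 19920 genes for each. Prom1 (0.20) and Nes (0.19) came next, at 91.3% and 90% of genes. Vim (0.03) and Fabp7 (0.06) were the steadiest, with an SD larger than that of 7.28% and 26% of genes. In all, 8 of the 10 genes had an SD above the median of all genes, which was 0.09. Since levels were removed, how much of this spread goes with brightness was not tested.

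Knockout C and wild-type B held most of the low values. Knockout C was the lowest array for 4 genes (Sox2, Fabp7, Msi1 and Slc1a3), and wild-type B for 3 (Nes, Vim and Prom1). The median over the 10 genes was 0.01, 0.0038 and -0.11 in knockout A, B and C, against 0.0076, -0.09 and 0.0021 on the wild-type arrays A, B and C. Prom1 and Hmga2 were nevertheless highest on knockout C. The pattern was set beside gene lists on the same arrays. The median of 25 cell cycle genes was -0.55 on wild-type B and 0.28 on knockout C, and between -0.11 and 0.22 on the other arrays. That of 24 differentiated neuron genes was 0.17 on wild-type B and -0.28 on knockout C, and between -0.06 and 0.03 on the others. The part of these shifts, and of the mesenchyme and vessel markers, in the values of the 10 genes was not tested. Without both of these arrays, a choice made after the data were seen, no gene had an unadjusted p under 0.05 in limma, and Prom1 was at 0.17 (SE 0.09), Nes at 0.21 (SE 0.09), Hmga2 at 0.11 (SE 0.09), Sox3 at 0.18 (SE 0.09) and Fabp7 at -0.03 (SE 0.05).

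**Figure D3:**
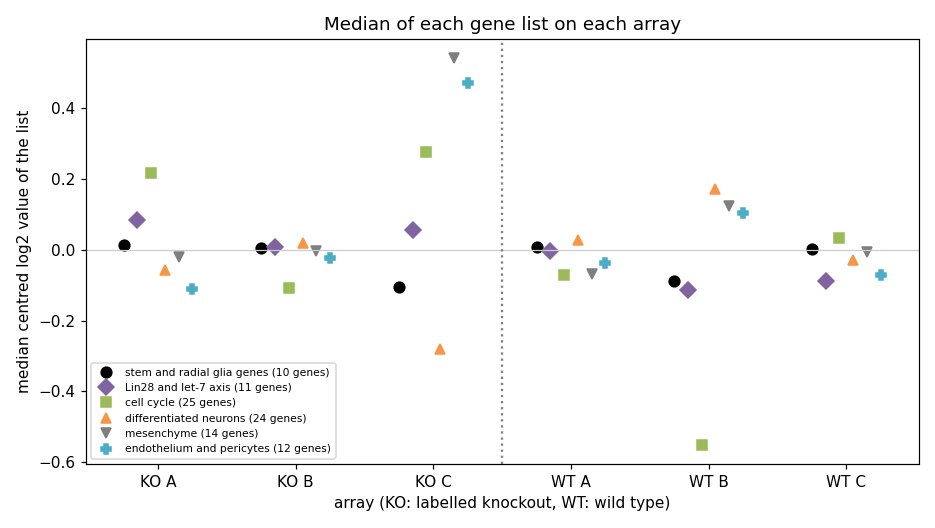
Median of the centred log2 values of 6 gene lists on each array, with the arrays labelled knockout left of the dotted line and the wild type right of it. The 10 stem and radial glia genes stay between -0.11 and 0.01, cell cycle genes are at -0.55 on wild-type B, and mesenchyme and vessel markers are at 0.54 and 0.47 on knockout C.

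**Figure D4:**
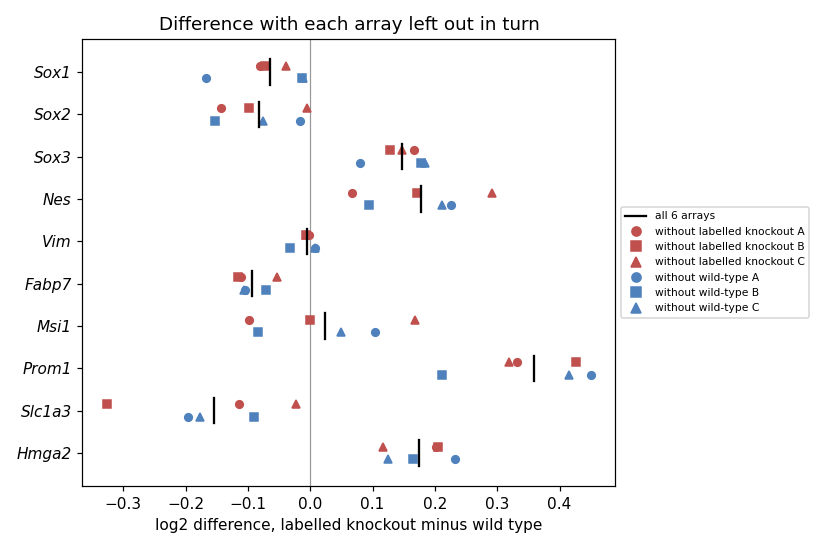
Difference of each gene, labelled knockout minus wild type, on the log2 scale, with all 6 arrays (black bar) and with each array left out in turn (red for an array labelled knockout, blue for a wild-type array). Prom1 moves between 0.21 and 0.45 and Slc1a3 between -0.33 and -0.02, and the points of Msi1 and Vim lie on both sides of 0.

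Paralogs of the genes were measured for 28 of 29 named, with 11 higher, 17 lower and a median difference of -0.03. Over all genes 10970 of 19920 were higher. No paralog passed over the whole table, and 1 had an unadjusted p under 0.05 in limma, where 5.57% of all probe sets lay. This paralog was Sox13, a SoxD factor, at 0.13 (SE 0.05). The neuronal intermediate filament genes Prph, at -0.40 (SE 0.18), and Nefh, at -0.16 (SE 0.08), had the next lowest p. Among close relatives, Sox21, a SoxB2 factor that counteracts SoxB1 activity, was at 0.02 (SE 0.05), and Sox9, a SoxE factor of the switch to glia, at -0.11 (SE 0.05). Msi2 was at 0.14 (SE 0.08), Prom2 at 0.09 (SE 0.06), Fabp5 at -0.05 (SE 0.10), Synm, another filament partner of nestin and vimentin, at 0.03 (SE 0.06), and the transporter Slc1a2 at -0.0018 (SE 0.08). Msi2 was highest on knockout A (0.22) and lowest on wild-type B (-0.17), while Msi1 was highest on knockout A and lowest on knockout C.

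Other genes of neuroepithelium and radial glia numbered 34, all measured, with 22 higher and 12 lower and a median difference of 0.02. No member passed over the whole table, and 3 had an unadjusted p under 0.05, 2 higher and 1 lower. Over all genes 10970 of 19920 were higher, and at that threshold 3.07% of all probe sets were higher and 2.5% lower. Notch1, the receptor that maintains progenitors, stood at 0.30, 0.01 and 0.26 in knockout A, B and C, against -0.03, -0.40 and -0.01 on the wild-type arrays A, B and C. Its difference was 0.34 (SE 0.13), and like Prom1 it was lowest on wild-type B. Pard3, a scaffold of apical polarity, was at 0.13 (SE 0.05), and Dbi, the diazepam-binding inhibitor found in progenitors and glia, at -0.20 (SE 0.06). Median values of this list on the arrays lay between -0.04 and 0.02.

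Genes of the Lin28 and let-7 axis, which times progenitor maturation and acts on Hmga2, were measured for 11 of 13 named. The labelled knockout was higher for 10 and lower for 1, with a median difference of 0.13, where 10970 of all 19920 genes were higher. No member passed over the whole table. At an unadjusted p under 0.05 there were 3, all higher, where 3.07% of all probe sets were higher at that threshold. The transcription factor gene E2f5 stood at 0.11, 0.05 and 0.32 in knockout A, B and C, against -0.05, -0.11 and -0.15 on the wild-type arrays A, B and C, a difference of 0.26 (SE 0.08). Trim71, a repressor of mRNAs and itself a let-7 target, was at 0.12 (SE 0.05), and Igf2bp1, an mRNA-binding protein of fetal tissue, at 0.37 (SE 0.15). The groups of Igf2bp1 overlapped, with knockout B (-0.07) below wild-type A (0.07). Lin28a was at 0.28 (SE 0.13) and Lin28b at 0.34 (SE 0.15), given because the axis is named for them, and the groups of both overlapped. The list medians were 0.08, 0.0069 and 0.06 in knockout A, B and C, against -0.0032, -0.11 and -0.09 on the wild-type arrays A, B and C.

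The let-7 microRNAs bind Hmga2 mRNA through their seed, bases 2 to 8. The 8 mature 5p forms in RefSeq (GRCm38.p6) share 1 seed, and 3 of them are shown to display how far they differ outside it. Capitals mark the seed.
mmu-let-7a-5p: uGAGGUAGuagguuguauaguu
mmu-let-7e-5p: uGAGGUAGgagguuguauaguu
mmu-let-7i-5p: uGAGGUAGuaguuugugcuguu
RefSeq places them at chr13:48538239-48538260 on the minus strand (let-7a), chr17:17830366-17830387 on the plus strand (let-7e) and chr10:122985698-122985719 on the minus strand (let-7i). Only 1 place per form is given, and a further let-7a locus, Mirlet7a-2, lies on chromosome 9. Probe sets were annotated to 9 let-7 loci and may read the precursor or host transcript rather than the mature RNA. This set was chosen after the data were seen. Their differences lay between -0.18 and 0.22, 4 higher and 5 lower, and the lowest unadjusted p in limma was 0.0807.

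Lists of cell cycle genes, of sex-linked genes and of markers of other cells in or near the tissue were set beside these genes. None of their members passed over all probe sets. Of the 25 cell cycle genes all 25 were higher (median 0.33) in the arrays labelled knockout, but 1 had an unadjusted p under 0.05. Of the 24 neuron genes 22 were lower (median -0.17), 3 of them at that threshold. All 14 mesenchyme markers (median 0.37), 9 of 12 endothelial and pericyte markers (0.17) and all 8 erythroid markers (0.22) were higher, none at that threshold. Over all genes 10970 of 19920 were higher, and at that threshold 3.07% of all probe sets were higher and 2.5% lower. Genes of a list may vary together, so these counts need not be independent. The cell cycle median on knockout B (-0.11) lay below those on wild-type A (-0.07) and wild-type C (0.03). The mesenchyme medians on knockout A (-0.02) and knockout B (-0.0044) lay below that on wild-type B (0.12). The erythroid median was low on wild-type A (-0.32) and wild-type B (-0.39) and highest of the 6 arrays on wild-type C (0.19). Of 6 neural crest and Schwann precursor markers 4 were higher and 2 lower (median 0.02). Of 10 macrophage markers 2 were higher and 8 lower (median -0.04). Of 4 sex-linked genes 1 was higher (Xist) and 3 were lower (Eif2s3y, Kdm5d and Uty), all 4 at that threshold. Knockout B and C stood apart in these genes from knockout A and from every wild-type array, so the labelled groups also differed in sex-linked expression.

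The genes whose pattern lay closest to the median of the 10 over the 6 arrays were Ttll12, Ppp1r10, Ctsw, Comp and Gpalpp1. Likeness was the root mean square difference from that median profile, among 17193 genes whose range over the arrays was at least that of the profile, 0.12. Their own differences lay between -0.02 and 0.01. The profile is nearly flat and rests on the low values of knockout C and wild-type B. Each of these 5 genes shared those low values because it was picked for likeness to the profile. Their distances from the profile lay between 0.013 and 0.019. Those of the 10 genes themselves lay between 0.049 (Vim) and 0.24 (Prom1), so none of the 10 was as close.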

How the data were processed

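Per the labels' protocols, whole-transcriptome amplification gave sense-strand cDNA, which carried a biotin label. Per the submitters' processing notes, the authors computed the deposited log2 values with RMA; the sources used here give no version or settings, and the base 2 was assumed because RMA uses it. Every complete probe set had a median of 0 over the 6 arrays. A probe set with no value on 1 array (24 in the table, none of the 10 genes) was fitted on the remaining 5. Of 15 pairs of arrays 0 held identical values. Array medians lay between -0.0067 and 0.0090.

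Symbols came from the platform annotation; 21780 probe sets had 1 symbol, 1605 several and 5430 none. A gene with several probe sets was represented by the one with most accessions. Groups were compared with limma 3.58.1 (R 4.3.3; lmFit and eBayes). Genotype was the sole term, with Benjamini-Hochberg adjustment over all 28815 probe sets. SE and 95% intervals are moderated and not adjusted. The script was tested on simulated data. Figures used matplotlib 3.10.9.

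The genes, lists and naming rule were chosen with earlier results of these data known: every one of the 10 genes, up to 3 genes of lowest p per progenitor list, named close paralogs, and the 5 genes closest to the median profile. Other settings tried were a replicate block by letter, leaving out each array, median centring, quantile normalization, array weights, a robust prior, the Xist value as a covariate and the mean over probe sets.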

Additional observations from a re-analysis of the deposited data

How the results depend on the processing

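None of the 10 genes passed an adjusted p of 0.05 in limma in any of the 13 other fits. The table as a whole had 0 probe sets past it in each of these fits except 1: without knockout A, 5 probe sets passed, namely Xist, Kdm5d, Eif2s3y, Uty and 1 without a symbol, and with single arrays left out the count ran between 0 and 5. At an unadjusted p under 0.05 the table had 1605 probe sets, against 977 without wild-type B, 2871 without knockout B and 938 without both knockout C and wild-type B. The median difference of the 10 genes ran between -0.042 and 0.055 with single arrays left out, and was 0.080 with the Xist covariate, against 0.0085 with all arrays and no covariate. The fit with the Xist covariate rested mainly on knockout A, as described for Sox3.

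With the letter as a replicate block 2552 probe sets lay at an unadjusted p under 0.05, among them 2 of the 10 genes, Prom1 (unadjusted p = 0.00506 in limma) and Sox3 (0.0463). The letters were not treated as pairs in the main comparison, because the labels name no batch. Deviations from the group means correlated at 0.16, 0.22 and 0.02 for A, B and C, and 2 of 3 arrays in each group correlated best with their own letter. Whether the letters are pairs cannot be told from these values.

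Left-out arrays turned the sign of Vim (range -0.032 to 0.0076) and Msi1 (-0.10 to 0.17). Without both knockout C and wild-type B, Sox1 was at 0.011 and Slc1a3 at 0.041, of opposite sign to the values with 6 arrays. The causes were not tested. With the Xist covariate, where the difference rested mainly on knockout A, Sox2 was at 0.058, of opposite sign to its value without the covariate. Sox3, Nes, Fabp7, Prom1 and Hmga2 kept their direction in every setting. For Sox3, Fabp7 and Prom1, whose groups did not overlap, leaving out arrays could not have turned the sign. The replicate block, the robust prior and the mean over probe sets gave the same differences as the fit on genotype alone, by construction. At an unadjusted p under 0.05 in limma were also Sox1 (-0.17) and Hmga2 (0.23) without wild-type A, Slc1a3 (-0.33) without knockout B, and Nes without knockout C (0.29) and with the Xist covariate (0.43). These were picked from 10 genes over 13 other fits, with no adjustment for that number. Of 28815 probe sets, those at the same threshold numbered 1297 without wild-type A, 2871 without knockout B, 1182 without knockout C and 1669 with the Xist covariate. Prom1 was past that threshold with all arrays, and not without knockout A (0.33), without knockout C (0.32), with array weights (0.34), with the Xist covariate (0.41) or without both knockout C and wild-type B. Each of the 10 genes had 1 probe set, so averaging probe sets altered nothing. A filter on dim probe sets was not run, since the centred values hold no level, and signal over background could not be seen.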

Other observations

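Genes that mark the later turn of radial glia to glial fates were looked at beside the 10 genes. Of 10 genes of oligodendrocyte precursors and astrocytes, the labelled knockout was higher for 5 and lower for 5, with a median difference of -0.0069, and none passed over all probe sets in limma. Pdgfra is also among the mesenchyme markers and Sox10 among the neural crest markers, and both were among the 5 higher. Nfia, a transcription factor that starts gliogenesis in the spinal cord, stood at -0.44, -0.02 and -0.35 in knockout A, B and C, against 0.02, 0.39 and 0.14 on the wild-type arrays A, B and C. All arrays labelled knockout lay below all wild-type arrays, and the difference was -0.45 (SE 0.14, unadjusted p = 0.0147 and adjusted p = 0.812 in limma). Nfia was the 1 gene of this list at an unadjusted p under 0.05, where 2.5% of all probe sets were lower. Aqp4, an astrocyte water channel, was at 0.08 (SE 0.04), and Cspg4, a precursor proteoglycan, at -0.08 (SE 0.07). The groups did not overlap for 1 higher gene of the list (Aqp4) and 1 lower gene (Nfia). In the whole table they did not overlap in 6.68% of complete probe sets higher and 4.25% lower.

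Of 9 markers of the floor plate and V3 domain, 7 were higher and 2 lower, with a median of 0.15, and 4 had an unadjusted p under 0.05 in limma, all higher, where 3.07% of all probe sets were higher at that threshold. The lower members were the V3 genes Nkx2-2 (-0.09) and Sim1 (-0.29), named after their values were seen. Wild-type B had the lowest list median (-0.16), and the remaining arrays lay between -0.04 and 0.10. The transcription factor genes Foxa1 (0.18, SE 0.05), Foxa2 (0.22, SE 0.07) and Ferd3l (0.24, SE 0.09) had the lowest p. The floor plate was excluded from the tissue per the labels, and how much of it remained could not be read from centred values. Of 13 dorsal cord markers 5 were higher and 8 lower, with a median of -0.02. The 3 of lowest p were all lower. Barhl2, of dorsal commissural neurons, was at -0.57 (SE 0.11), Barhl1 at -0.27 (SE 0.09) and Olig3, a dorsal progenitor factor, at -0.42 (SE 0.19). At an unadjusted p under 0.05 in limma there were 2, both lower, where 2.5% of all probe sets were lower. The 5 higher genes were Bmp4 (0.16), Atoh1 (0.15), Bmp6 (0.12), Wnt3a (0.05) and Wnt1 (0.05), named after their values were seen. The groups did not overlap for 1 higher dorsal marker (Bmp6) and 2 lower ones (Barhl2 and Olig3). Over the whole table this held for 6.68% of complete probe sets higher and 4.25% lower. None of the markers of either list passed over all probe sets. The adjusted p in limma was 0.812 for Foxa1, Foxa2, Ferd3l, Barhl2, Barhl1 and Olig3.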
